A study of Mus musculus with 12 samples.

Results

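This section describes how wild-type regulatory T cells (Treg) changed during 3 h of activation through CD3 and CD28. It rests on the 6 arrays of wild-type cells among the 12 arrays of the series, 3 at 0 h and 3 at 3 h, chosen by their labelled genotype (CD83 WT) and time. All 6 came from Treg sorted from the spleens of 9-week-old female C57BL/6 mice. The 3 arrays at 0 h held RNA of non-activated cells, and the 3 arrays at 3 h held RNA of cells kept for 3 h with anti-CD3/-CD28, antibodies that engage the T cell receptor complex and the CD28 co-receptor. The other 6 arrays held Treg of female C57BL/6 mice labelled CD83cKO, read here as a conditional knockout of Cd83, 3 at 0 h and 3 at 3 h, of which 1 at each time came from 21-week-old mice and 2 from 10-week-old mice. They serve here as a second measurement of the same contrast. The labels do not say how or in which cells Cd83 was removed, whether the wild-type mice carried any transgene, or how purity after the sort was checked.

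Regulatory T cells hold immune responses in check and depend on the transcription factor Foxp3 for their identity. A signal through the T cell receptor and CD28 opens calcium, MAP kinase and NF-kB pathways within minutes. The first genes to rise are immediate early genes, which need no new protein for their transcription; many encode transcription factors or inhibitors of the pathway that switched them on. RNAs with a short half-life can also fall quickly once their transcription stops.

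RNA was measured on Agilent single-colour mouse arrays, on which each probe's Cy3 brightness reports 1 transcript. Levels below are log2 intensities after each array was brought to a common 75th percentile, so a difference of 1 is a 2-fold change; levels of different genes are not compared. On the 6 wild-type arrays between 45.6% and 47.0% of the probes were well above background, and no probe was saturated. A gene entered the test where every array of 1 time, or of both, read a probe of it well above background, which held for 17911 genes. A gene dim on some or all arrays of the other time entered through 1 time alone. Its p-value then rests in part on levels near background. Arrays of the same time correlated at 0.991 to 0.9925 (Pearson r across genes) and arrays of different times at 0.9366 to 0.9439. The first principal component, with 83.0% of the variance, separated the times.

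Both times were hybridised on separate slides, the 0 h arrays on one and the 3 h arrays on another, so time and slide cannot be told apart in the wild-type arrays. All CD83cKO arrays shared a slide of their own, and their 3 h minus 0 h difference, fitted with mouse age as a block, is therefore given beside the wild-type difference as a value measured within 1 slide. No group was kept for 3 h without the antibodies, so effects of activation and of the time in culture cannot be told apart either. The labels tie no array to a mouse and list 6 mice for 12 arrays. P-values take the arrays as independent and describe the spread between them.

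Marker genes were read beside the label of the cells. A gene that counts as measured shows a transcript above background, which by itself does not tell the cell type. Of 20 genes of the Treg core signature, 19 were measured, among them Il2ra, Ctla4, Ikzf2 and Lrrc32. Foxp3 itself was not: its only probe (mm9 chrX:7172301-7172360) was not well above background on any of the 6 wild-type arrays, and was well above it on all 6 CD83cKO arrays. Of the T cell markers, 11 of 12 were measured. Transcripts of other cell types were present as well. All 12 monocyte and macrophage markers were measured, as were 9 of 10 NK and CD8 T cell markers and 8 of 10 B cell markers. So were 8 of 10 dendritic cell, 9 of 12 erythroid and platelet, 4 of 6 plasma cell and 4 of 9 neutrophil markers. The neutrophil genes S100a8, S100a9 and Ly6g were not above background at either time.

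Promoter sequences of 8 genes that come up below are shown first, as examples of the sites counted further on. Each is the 150 bases before the annotated start, from RefSeq on GRCm38.p6, 5′ to 3′ in the direction of transcription. In Areg (plus strand, chr5:91139449-91139598) the capitals mark the cyclic AMP response element (CRE) TGACGTCA. In Atf3 (minus strand, chr1:191183334-191183483), Nr4a2 (minus strand, chr2:57124004-57124153) and Rgs2 (minus strand, chr1:144004150-144004299) they mark the short CRE core TGACG or its reverse complement. In Tnfaip3 (minus strand, chr10:19015411-19015560) and Nfkbia (minus strand, chr12:55492648-55492797) they mark NF-kB sites. In Ifit1 (plus strand, chr19:34640739-34640888) and Rsad2 (minus strand, chr12:26456453-26456602) they mark the interferon-stimulated response element (ISRE), on either strand.
Areg: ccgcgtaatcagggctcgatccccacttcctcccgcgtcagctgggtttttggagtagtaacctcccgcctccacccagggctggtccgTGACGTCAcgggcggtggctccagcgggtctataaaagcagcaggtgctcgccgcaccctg
Atf3: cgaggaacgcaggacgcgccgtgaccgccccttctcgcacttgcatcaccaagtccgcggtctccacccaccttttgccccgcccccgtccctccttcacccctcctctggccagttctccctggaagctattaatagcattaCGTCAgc
Nr4a2: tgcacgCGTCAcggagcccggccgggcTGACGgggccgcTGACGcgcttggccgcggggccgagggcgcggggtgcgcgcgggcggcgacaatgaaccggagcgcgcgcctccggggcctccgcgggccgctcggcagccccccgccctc
Rgs2: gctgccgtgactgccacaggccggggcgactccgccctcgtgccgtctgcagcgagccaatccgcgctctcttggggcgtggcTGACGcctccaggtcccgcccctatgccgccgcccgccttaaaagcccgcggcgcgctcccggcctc
Tnfaip3: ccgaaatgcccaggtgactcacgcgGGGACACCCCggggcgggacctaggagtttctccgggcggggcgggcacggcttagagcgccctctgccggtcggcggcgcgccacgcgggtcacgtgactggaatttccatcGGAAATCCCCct
Nfkbia: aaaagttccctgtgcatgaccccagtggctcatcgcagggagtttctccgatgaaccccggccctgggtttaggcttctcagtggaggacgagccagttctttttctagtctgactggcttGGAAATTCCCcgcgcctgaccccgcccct
Ifit1: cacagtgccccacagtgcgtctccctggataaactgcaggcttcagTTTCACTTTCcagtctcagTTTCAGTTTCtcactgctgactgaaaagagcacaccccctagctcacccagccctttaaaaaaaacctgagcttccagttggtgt
Rsad2: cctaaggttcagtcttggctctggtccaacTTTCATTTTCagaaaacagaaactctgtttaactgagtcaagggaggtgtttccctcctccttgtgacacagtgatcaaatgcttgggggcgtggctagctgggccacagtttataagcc

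The activation response was broad. Of the 17911 genes tested, 4821 rose (26.9%) and 6565 fell (36.7%), with the threshold set at an adjusted p of 0.05 (limma, Benjamini-Hochberg over all genes tested). The 3 h arrays all lay above the 0 h arrays in 30.1% of genes and all below them in 40.4%. Together 63.6% of all genes passed, so a call by itself says little, and a stricter rule is given beside it, limma's treat test of a change beyond 2-fold. By that rule 808 genes rose (4.51%) and 1170 fell (6.53%). The median difference of all genes was -0.125. Among the 16188 genes above background on all 6 arrays, 27 rose by over 4 on the log2 scale and 10 fell by as much, and 8 rose by over 5, a size that no fall among these genes reached. At the level of detection, 277 genes were above background on none of the 0 h arrays and on all 3 h arrays, and 299 genes showed the reverse. A fit of all 12 arrays with 4 group means, in which the spread of the CD83cKO arrays enters the error, called 2520 rises and 3141 falls. Where the counts of a list moved by over 1.5 times in that 12-array fit, they follow the main counts in brackets, rises first. Every list count below is to be read against the 26.9% of all genes tested that rose and the 36.7% that fell.

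The 15 largest rises among genes with a symbol were ranked by the fitted difference, in which a level below background stands at its measured value, so the order among such genes is not settled. They held transcription factors of the immediate early class beside genes better known from nerve, gut or endocrine cells. Atf3, a stress-induced bZIP factor, read 4.21, 4.10 and 2.48 at 0 h and 12.31, 12.16 and 12.22 at 3 h. None of the 0 h arrays was above background, and the rise was at least 280-fold. Gls2, a mitochondrial glutaminase, followed a like course, 4.03, 3.85 and 3.87 at 0 h and 11.85, 11.92 and 11.74 at 3 h, a rise of at least 222-fold. Both genes went from below background on all 0 h arrays to above it on all 3 h arrays, and entered the test through the 3 h arrays alone. A lack of overlap between times was part of the rule that chose this list. Ramp3, a subunit that turns the calcitonin receptor-like receptor into a receptor for adrenomedullin and related peptides, was already measured at rest. Its levels were 9.36, 9.48 and 9.55 at 0 h and 17.20, 17.16 and 17.14 at 3 h, a 208-fold rise (7.70 ± 0.080). Calca, which encodes calcitonin and the neuropeptide CGRP, was below background at 0 h and rose at least 77.0-fold to 10.02, 10.06 and 10.10 at 3 h. Ramp3 and Calca thus pair a receptor subunit with a gene of the same peptide family.

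On the same list Fndc4, Evx1, Scrt1, Slc32a1 and Cidea also went from below background on all 0 h arrays to above it on all 3 h arrays. Their rises were at least 34.7-fold, 37.2-fold, 35.7-fold, 15.5-fold and 22.7-fold. Evx1 and Scrt1 are developmental transcription factors, Slc32a1 is the vesicular GABA transporter and Cidea a lipid droplet protein.

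**Figure D1:**
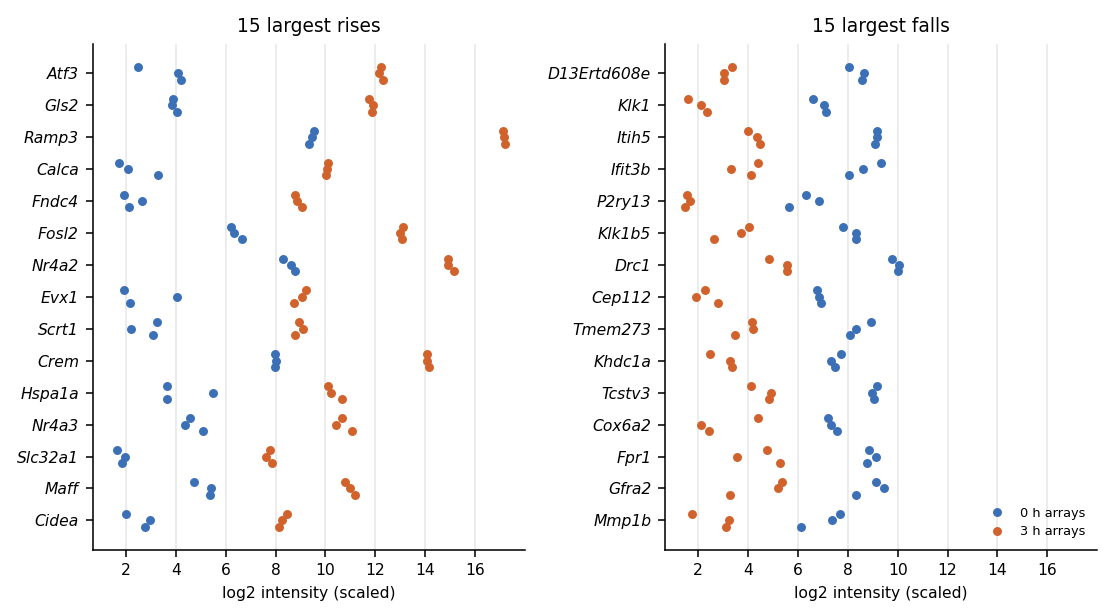
Scaled log2 intensity on each wild-type array for the 15 largest rises (left) and the 15 largest falls (right) among genes with a symbol; blue points are the 0 h arrays and orange points the 3 h arrays, 3 of each. In every gene shown the times do not overlap, by the rule that chose them; points below background, as for Atf3 at 0 h and Klk1 at 3 h, are drawn at their measured value and have no settled order.

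Immediate early transcription factors moved as a group toward higher levels, with exceptions. All 27 genes of the list were measured; 18 rose and 5 fell (14 and 3 in the 12-array fit), 13 rose past 2-fold, and their median difference was 1.46 beside -0.125 for all genes. The NR4A nuclear receptors, which report the strength of T cell receptor signals, all rose. Nr4a1 was already high at rest, 14.22, 14.26 and 14.14 at 0 h and 17.49, 17.41 and 17.35 at 3 h, 3.21 ± 0.077, adjusted p = 1.11e-05. Nr4a2 read 8.78, 8.61 and 8.31 at 0 h and 15.17, 14.90 and 14.91 at 3 h, an 86.1-fold rise (6.43 ± 0.15, adjusted p = 1.1e-05). Nr4a3 read 5.08, 4.36 and 4.58 at 0 h and 11.09, 10.42 and 10.65 at 3 h, 6.05 ± 0.24, with 2 of 3 arrays above background at 0 h. In CD83cKO cells the differences of Nr4a1 and Nr4a2 were 3.24 ± 0.17 and 5.60 ± 0.53, and Nr4a3 read 2.45 to 3.82 at 0 h and 6.92 to 10.78 at 3 h, higher at 3 h on the slide that held both times.

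Among the AP-1 factors, Fosl2 rose the most, 6.67, 6.32 and 6.21 at 0 h and 13.07, 13.00 and 13.10 at 3 h, 6.66 ± 0.13, adjusted p = 8.02e-06. Maff, a small MAF protein that pairs with other bZIP factors, rose by 5.81 ± 0.22, and Fosb by 4.85 ± 0.18. Fos rose by 3.32 ± 0.19 and Junb by 1.82 ± 0.088, while Jun (0.59) did not pass the threshold. For Fos the CD83cKO difference was 0.44 ± 1.01, less than its error, and 2.08 without the 21-week arrays. Batf3, which pairs with Jun factors, fell past 2-fold by 2.13 ± 0.25, and Batf by 1.07 ± 0.19. Egr1 and Myc, classical early genes, were measured at 0.10 and 0.27 and did not pass; at 0 h the Egr1 arrays read 11.30, 11.16 and 11.27 and at 3 h 11.21, 11.48 and 11.33. Egr2 rose by 0.88 and Egr3 at least 3.36-fold from below background.

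Genes of the cyclic AMP response formed the list with the highest median, 1.79. Of 16 genes measured, 12 rose and 1 fell, 10 of them rising past 2-fold. Crem encodes a CREB family factor whose short isoform ICER represses cyclic AMP targets; it read 7.99, 8.01 and 7.98 at 0 h and 14.15, 14.08 and 14.06 at 3 h, a 68.6-fold rise (6.10 ± 0.068, adjusted p = 8.86e-07). Sik1, a kinase that keeps CREB coactivators in the cytoplasm, rose by 3.27 ± 0.10, adjusted p = 1.75e-05, and the endoplasmic reticulum factor Creb3l2 by 3.08 ± 0.14. Phosphodiesterases, which break down cyclic AMP, rose as well: Pde4d read 8.34, 8.12 and 8.02 at 0 h and 11.17, 11.26 and 11.36 at 3 h, 3.11 ± 0.11. Pde4a, Pde3b, Pde8a, Pde4b and Pde7a rose by 2.55, 2.03, 1.93, 1.90 and 1.39. Adcy7, a cyclase that makes cyclic AMP, was the member that fell (2.01 ± 0.095). In CD83cKO cells Crem differed by 5.37 ± 0.47 and Pde4a by 0.50 ± 0.49, or 6.10 and 1.23 without the 21-week arrays.

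Of 15 measured MAP kinase feedback genes, 8 rose and 2 fell (7 and 1 in the 12-array fit), and 7 rose past 2-fold. Among the rises were dual-specificity phosphatases, which remove phosphates from MAP kinases. Dusp10 read 7.13, 7.50 and 7.43 at 0 h and 11.89, 11.85 and 11.97 at 3 h, 4.55 ± 0.12, adjusted p = 1.32e-05. Dusp5 rose by 3.21 ± 0.11, Dusp4 by 3.44 ± 0.17 and Dusp1 by 2.50 ± 0.10. Errfi1, an inhibitor of the EGF receptor, rose by 3.44 ± 0.13. Dusp7 fell (1.70 ± 0.10), and Dusp2 (0.33) and Dusp6 (0.19) did not pass. Spry2 and Spry4 were below background at both times.

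The NF-kB list held mostly rises: 17 of 22 genes rose and 2 fell (10 and 1 in the 12-array fit), with a median of 1.22. Tnfaip3, the ubiquitin-editing inhibitor A20, changed the most, 11.03, 11.44 and 11.44 at 0 h and 16.15, 16.00 and 15.95 at 3 h, a 26.6-fold rise (4.73 ± 0.14, adjusted p = 1.6e-05). The subunit genes Nfkb1 and Nfkb2 rose by 2.32 and 2.15, Relb by 1.39 and Rela by 0.93. For Nfkb2 the arrays read 11.80, 11.57 and 11.72 at 0 h and 13.88, 13.80 and 13.85 at 3 h (2.15 ± 0.086, adjusted p = 2.29e-05). The nuclear inhibitor family member Nfkbid rose by 2.62 ± 0.12 and the caspase inhibitor Birc3 by 1.81 ± 0.079. The cytoplasmic inhibitor Nfkbia rose by 1.28, which did not pass the 2-fold test. The only probe of Rel was not well above background on any array of either genotype, so the level of Rel could not be read. Cyld, a deubiquitinase that restrains the pathway, fell by 1.38 ± 0.10; in CD83cKO cells it differed by 1.23 ± 1.45, with 1 of the 3 arrays at 0 h at 5.55 and the other two at 11.25 and 10.28.

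Transcription factor sites were counted in the 250 bases before the start of 10136 tested genes that had a promoter entry, and the counts describe letters, not binding. The short CRE core and the ISRE were chosen after results had been seen. A full CRE stood in 4 of the promoters of the 50 largest rises that have an entry (8%), in none of those of the 50 largest falls, and in 2.81% of all tested promoters; the rises past 2-fold held it in 6.83% and the falls in 1.07%. The short core TGACG, which the full CRE contains, was found in 38% of the 50 largest rises, 8% of the 50 largest falls and 26.6% of tested promoters. The AP-1 site TGACTCA was found in 6%, 10% and 2.98%, and NF-kB sites in 12%, 6% and 4.41%. EGR sites (GCGTGGGCG or GCGGGGGCG) stood in 6%, 2% and 5.41%, the E-box CACGTG in 12%, 2% and 8.36%, and the CArG box in 2%, 0% and 1.23%. Both strands were read throughout. Base composition moved with the sets: the median GC content was 61.4% for the 50 largest rises, 51.6% for the 50 largest falls and 59.2% for all tested promoters, and its part in these shares was not tested. NF-kB sites were found in 7 of 18 promoters of the NF-kB list (38.9%), among them those of Tnfaip3 and Nfkbia shown above. In the cyclic AMP list none of 11 promoters held the full CRE and 5 held the short core. Each gene was searched at its start furthest upstream alone, so sites at other starts of a gene were not counted. The ISRE stood in 8% of the 50 largest rises, 16% of the 50 largest falls and 2.81% of tested promoters. The rises past 2-fold held it in 2.09% and the falls in 6.95%. Of 23 interferon response promoters, 11 held the ISRE (47.8%).

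Secreted factors moved in both directions. Of 30 helper cytokines and Treg mediators on the list, 12 were not above background at either time, Il2 and Csf2 among them. Of the 18 measured, 7 rose and 8 fell (4 and 5 in the 12-array fit). Areg, an epidermal growth factor family ligand that Treg make in tissue repair, rose most, 5.47, 5.65 and 5.27 at 0 h and 10.32, 9.93 and 9.93 at 3 h, a 24.2-fold rise (4.60 ± 0.15, adjusted p = 1.77e-05). Il10, the anti-inflammatory cytokine, read 7.42, 6.95 and 6.85 at 0 h and 10.34, 9.91 and 9.99 at 3 h (3.01 ± 0.19, adjusted p = 6.9e-05). In CD83cKO cells Areg read 2.38 to 4.74 at 0 h and 6.15 to 9.71 at 3 h, and Il10 differed by 4.19 ± 0.28. Il21 fell from 5.94, 4.52 and 5.12 to below background, at least 2.52-fold, and Lta, Ltb and Csf1 fell by 2.58 ± 0.19, 1.49 ± 0.086 and 1.84 ± 0.11. Ifng (-0.34), Tnf (-0.23) and Gzmb (-0.33) did not pass the threshold.

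Of 10 measured chemokine genes, 1, Cxcl10, rose (1.14 ± 0.18) and 5 fell (0 and 1 in the 12-array fit), beside 36.7% of all genes that fell. Ccl1, a ligand of Ccr8, read 8.64, 7.97 and 8.40 at 0 h and 5.44, 3.71 and 4.01 at 3 h (-3.95 ± 0.47), with 2 of 3 arrays above background at 3 h. Its CD83cKO difference had the opposite sign, 0.87 ± 0.76, with overlapping arrays. Without the 21-week arrays that difference was -0.27. Ccl5 and Xcl1 fell by 1.05 ± 0.18 and 2.02 ± 0.21.

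Among 24 chemokine receptors and homing genes, 8 rose and 13 fell (4 and 6 in the 12-array fit). Ccr7, which guides lymphocytes into lymph nodes, read 14.42, 14.51 and 14.47 at 0 h and 17.41, 17.39 and 17.21 at 3 h, a 7.31-fold rise (2.87 ± 0.086, adjusted p = 1.6e-05). Cxcr4 rose by 3.42 ± 0.29 and Ccr8 by 2.54 ± 0.15. Cxcr5, the receptor that directs cells into B cell follicles, fell by 2.05 ± 0.10 and Itga4 by 1.68 ± 0.13.

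Receptors and ligands of costimulation went both ways, 10 of 22 rising and 7 falling (6 and 2 in the 12-array fit), beside 26.9% and 36.7% of all genes. Pdcd1, the receptor PD-1, read 12.66, 12.27 and 12.74 at 0 h and 15.24, 15.15 and 15.25 at 3 h (2.66 ± 0.14, adjusted p = 3.69e-05). Ctla4, the inhibitory CD28 homologue on which Treg depend, rose by 2.28 ± 0.082, Tigit by 1.84 ± 0.15 and the activation marker Cd69 by 2.07 ± 0.14. Cd83, the gene the study is named for, read 13.73, 13.56 and 13.78 at 0 h and 15.60, 15.07 and 15.03 at 3 h: 1.54 ± 0.17, adjusted p = 0.000523. It did not pass the 2-fold test (adjusted p = 0.0798). Cd226, the activating counterpart of Tigit, fell by 2.19 ± 0.24, and Cd160 by 2.17 ± 0.16. Lag3 fell by 1.49 ± 0.22.

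In the TNF superfamily 9 of 20 measured genes rose and 8 fell (5 and 5 in the 12-array fit). Tnfsf4, which encodes OX40 ligand, went from below background to 7.158, 6.645 and 6.996, a rise of at least 8.83-fold. Tnfrsf9, the receptor 4-1BB, read 10.22, 9.94 and 10.27 at 0 h and 13.80, 13.39 and 13.66 at 3 h (3.47 ± 0.15, adjusted p = 2.38e-05). Tnfsf14 (LIGHT) read 9.72, 9.82 and 9.94 at 0 h and 5.98, 5.59 and 5.73 at 3 h, a 16.7-fold fall (-4.06 ± 0.12, adjusted p = 1.61e-05), and Tnfsf10 (TRAIL) fell by 2.49 ± 0.085. In CD83cKO cells Tnfrsf9, Tnfsf14 and Tnfsf10 differed by 3.31, -1.71 and -1.65, or 3.71, -3.02 and -2.28 without the 21-week arrays.

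Of 31 measured genes of the T cell receptor complex and its proximal kinases, 6 rose and 19 fell (2 and 7 in the 12-array fit), with a median of -0.42. Lck, the kinase that starts the signal, read 16.84, 16.57 and 16.59 at 0 h and 15.30, 15.07 and 15.13 at 3 h (-1.50 ± 0.11, adjusted p = 0.000115). Cd3g fell by 1.40 ± 0.086, the adaptor Lcp2 (SLP-76) by 1.95 ± 0.080 and the phosphatase Ptpn6 (SHP-1) by 2.09 ± 0.073. Cblb, a ubiquitin ligase that dampens the signal, rose instead, 10.34, 10.30 and 10.41 at 0 h and 12.09, 12.16 and 12.20 at 3 h (1.80 ± 0.074, adjusted p = 2.29e-05). The T cell marker list, which shares several of these genes, held 1 rise and 8 falls among 11 (0 and 2 in the 12-array fit), with mean levels of 14.83 to 14.96 at 0 h and 14.2 to 14.3 at 3 h. In a bulk sample fewer T cells and less RNA per T cell cannot be told apart.

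Cytokine receptor and JAK-STAT genes rose in 17 of 32 cases and fell in 8 (10 and 2 in the 12-array fit). Stat5a, a mediator of IL-2 signals, read 10.96, 10.89 and 10.98 at 0 h and 13.90, 13.93 and 13.86 at 3 h, a 7.74-fold rise (2.95 ± 0.070, adjusted p = 1.11e-05). The repressor Bcl6 and the kinase Pim3 rose by 2.30 ± 0.10 and 2.50 ± 0.12, and Stat3, Il4ra and Jak2 by 1.99, 2.28 and 1.86. Il27ra fell by 1.84 ± 0.091 and Jak3 by 1.83 ± 0.10. Il2ra, the high-affinity IL-2 receptor subunit CD25, fell by 0.57 ± 0.093, and Il2rb (-0.12) and Il2rg (0.10) did not pass. Socs1, an inhibitor of JAK kinases, fell by 1.44 ± 0.087 in wild type and differed by 1.17 ± 1.03 in CD83cKO cells, or -0.52 without the 21-week arrays.

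Treg identity genes had no common direction. Of the 19 core genes measured, 8 rose and 8 fell (3 and 3 in the 12-array fit), beside 26.9% and 36.7% of all genes. Plagl1, a zinc finger gene of the signature, read 10.41, 9.99 and 10.12 at 0 h and 15.47, 15.17 and 15.24 at 3 h, a 34.9-fold rise (5.12 ± 0.14, adjusted p = 1.49e-05). Lrrc32 (GARP), which holds latent TGF-beta on the Treg surface, rose by 1.97 ± 0.092. Gpr83 read 6.74, 6.59 and 6.38 at 0 h and 3.49, 3.66 and 3.57 at 3 h, a fall of at least 6.54-fold to below background. Izumo1r, Nrp1 and Entpd1 fell by 1.78 ± 0.085, 1.68 ± 0.14 and 1.63 ± 0.22. Ikzf2 (-0.06) and Itgae (-0.48) did not pass. Of 30 effector Treg genes, which include some named above, 13 rose and 12 fell (8 and 5 in the 12-array fit). Their rises were led by Areg, Tnfrsf9 and Il10, and also included the transcription factors Nfil3 and Rora (2.84 ± 0.094 and 2.66 ± 0.10). The falls held the S100 genes S100a4, S100a6 and S100a10, which fell by 1.47, 1.49 and 1.32. Of 28 genes of naive and quiescent T cells, 12 rose and 10 fell (7 and 4 in the 12-array fit). Tob2, an antiproliferative adaptor of mRNA decay, read 10.73, 10.92 and 10.85 at 0 h and 14.62, 14.61 and 14.48 at 3 h (3.74 ± 0.086, adjusted p = 1.11e-05), and the chromatin organiser Satb1 rose by 2.14 ± 0.097; Dapl1 fell by 3.13 ± 0.13, Id3 fell by 2.44 ± 0.12 and Bcl2 fell by 1.76 ± 0.16.

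Regulators of mRNA decay rose widely but by small amounts. Of 20 measured, 16 rose and 1 fell (8 and 0 in the 12-array fit), with a median of 0.65. Besides Tob2, the endonuclease genes Zc3h12a and Zc3h12c rose by 1.88 and 1.32 ± 0.12, Zfp36 (tristetraprolin) by 0.95 and Btg2 by 0.87 ± 0.076; Zc3h12a and Zfp36 were above background on 1 of 3 arrays at 0 h. Zfp36l2 (-0.08) did not pass the threshold.

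Heat shock genes rose in 15 of 19 cases and fell in 1. Hspa1a, an inducible HSP70, read 3.65, 5.49 and 3.66 at 0 h and 10.65, 10.23 and 10.10 at 3 h (6.06 ± 0.52), with 1 of 3 arrays above background at 0 h. Its near-identical copy Hspa1b has no probe here, so the signal may come from either. The cochaperones Dnajb4 and Dnaja1 rose by 3.83 ± 0.17 and 1.39 ± 0.095 and Hspa2 by 2.55 ± 0.091. Of 20 unfolded protein and ATF4 stress genes, 11 rose and 6 fell (7 and 1 in the 12-array fit), with Ppp1r15a (GADD34), which restores translation, at 2.61 ± 0.15 and Atf4 itself at 1.22 ± 0.073. Chac1, above background on 2 of 3 arrays at 0 h, rose by 3.55 ± 0.31. The chaperone genes Pdia4 and Sdf2l1 fell by 0.99 ± 0.068 and 1.36 ± 0.097.

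Clock genes rose in 9 of 15 cases and fell in 2. Per1, a core clock repressor, read 12.12, 12.07 and 12.09 at 0 h and 14.42, 14.38 and 14.49 at 3 h (2.34 ± 0.070, adjusted p = 1.6e-05), and Bhlhe40, a repressor of clock genes, rose by 3.21 ± 0.19. Nfil3 and Dbp, bZIP factors that compete for the same DNA sites, moved apart, Nfil3 rising by 2.84 ± 0.094 and Dbp falling (12.89, 13.02 and 12.88 at 0 h and 9.73, 10.02 and 9.74 at 3 h, -3.10 ± 0.11, adjusted p = 1.91e-05). In CD83cKO cells the pair differed by 3.00 ± 0.22 and -1.85 ± 0.37.

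Regulators of G proteins included large rises. Gem and Rrad, small GTPases that bind calcium channels, rose by 4.39 ± 0.087 and 2.97 ± 0.091, and Rgs2 read 12.69, 12.84 and 12.59 at 0 h and 16.91, 16.85 and 16.81 at 3 h (4.15 ± 0.090, adjusted p = 9.18e-06). Of 12 genes on that list, 6 rose and 4 fell; Rgs3, Rgs11 and Rgs14 fell by 1.65, 1.55 and 1.45. Of 8 Gimap GTPases of lymphocytes, 1 rose and 5 fell (0 and 1 in the 12-array fit), all within -1.23 to 0.63.

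Amino acid transporters and polyamine genes rose in 10 of 16 cases and fell in 2 (5 and 0 in the 12-array fit), with a median of 0.43 beside -0.125 for all genes. Odc1, the first enzyme of polyamine synthesis, read 13.01, 12.68 and 12.74 at 0 h and 16.49, 16.28 and 16.21 at 3 h, an 11.5-fold rise (3.52 ± 0.13, adjusted p = 1.92e-05), while Srm, which acts after it, fell by 1.50 ± 0.11. The transporter genes Slc38a2 and Slc3a2 rose by 2.19 ± 0.093 and 1.89 ± 0.074. In the glycolysis and hypoxia list, 10 of 23 rose and 8 fell (5 and 3 in the 12-array fit). The lactate exporter Slc16a3 rose by 3.86 ± 0.098, Vegfa at least 14.9-fold from below background, and Egln3 by 2.24 ± 0.098, while the glycolytic enzymes Eno1 and Pfkm fell by 1.05 ± 0.072 and 1.66 ± 0.11 and Ldha was at 0.08, not past the threshold. Of 20 sterol synthesis genes, 9 rose and 5 fell (3 and 4 in the 12-array fit), beside 26.9% and 36.7% of all genes. Mvk and Cyp51 were higher (2.31 ± 0.093 and 1.22 ± 0.082) and Mvd and Dhcr7 lower (-1.48 ± 0.088 and -1.22 ± 0.071). Ribosome biogenesis genes rose in 11 of 34 cases and fell in 8 (9 and 4 in the 12-array fit), beside 26.9% and 36.7% of all genes. Nop56 rose by 1.18 ± 0.11 and Polr1b fell by 1.07 ± 0.088.

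Of 28 cell cycle and DNA replication genes, 4 rose and 10 fell (3 and 6 in the 12-array fit), with a median of -0.63; a share of falls near the 36.7% of all genes tested. Cdkn1a, the cell cycle inhibitor p21, read 6.11, 5.48 and 5.70 at 0 h and 11.43, 11.23 and 11.69 at 3 h, a 51.6-fold rise (5.69 ± 0.20, adjusted p = 1.92e-05). The cyclin genes Ccnd1, Ccnd2 and Ccnd3 and the kinase gene Cdk4 fell by 1.49, 1.30, 1.47 and 1.26. Apoptosis genes rose in 6 of 19 cases and fell in 6, near the 26.9% and 36.7% of all genes. Bcl2l11 (BIM) and Pmaip1 (NOXA), which promote death, rose by 3.17 ± 0.15 and 2.93 ± 0.15. The survival gene Bcl2 fell, and Gadd45b rose by 4.01 ± 0.16.

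**Figure D2:**
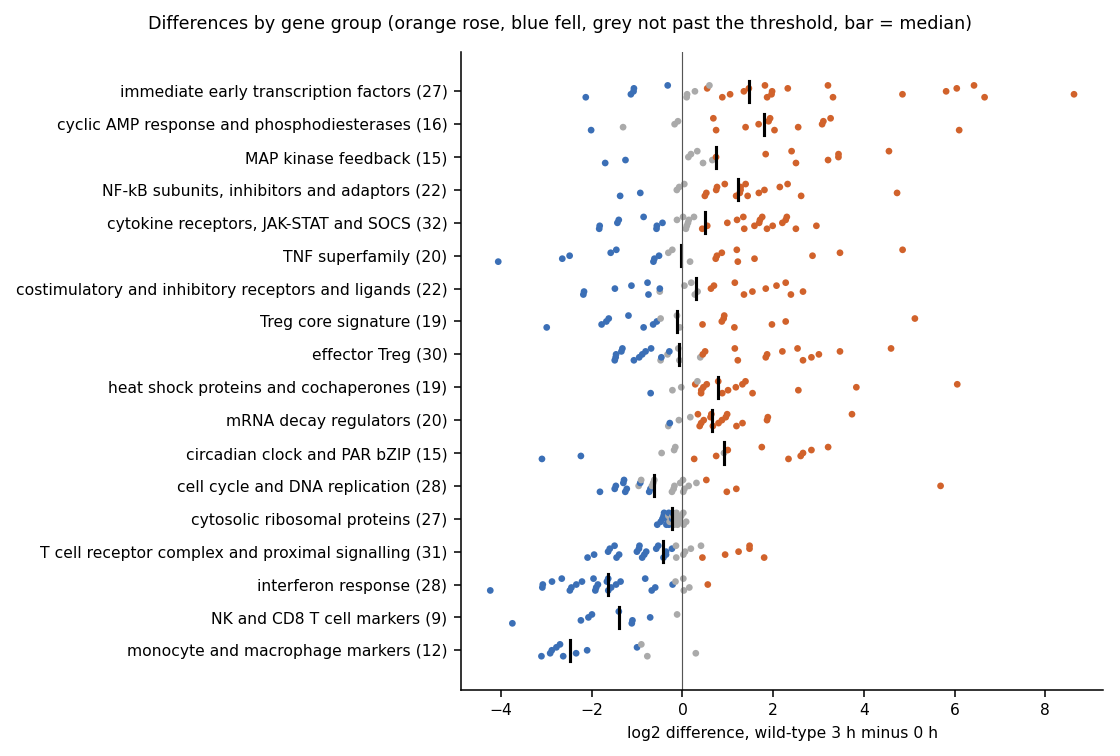
Log2 difference, wild-type 3 h minus 0 h, of each measured gene in 18 of the gene lists, with the number of measured genes in brackets; orange points rose and blue points fell past the threshold, grey points did not pass, and the black bar is the list's median. The medians run from 1.79 for the cyclic AMP response to -2.49 for the macrophage markers, and most lists hold genes on both sides of 0.

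Cytosolic ribosomal protein genes moved little. Of 27 measured, 12 fell and none rose at this threshold, with differences between -0.56 (Rpl14) and 0.08 (Rps24) and a median of -0.22. This count depends on the fit: 3 of 27 fell without a shift between arrays and 0 of 27 with all 12 arrays in the fit.

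Among the 15 largest falls, ranked in the same way, D13Ertd608e read 8.55, 8.66 and 8.04 at 0 h and 3.02, 3.02 and 3.36 at 3 h, a fall of at least 23.5-fold. The kallikrein genes fell as well, Klk1 at least 8.32-fold to below background while Klk1b5 was above background on 3 arrays at 0 h and on 1 of 3 at 3 h; they belong to a family of near-identical copies, so each probe may read its relatives. The purinergic receptor gene P2ry13 read 5.62, 6.83 and 6.30 at 0 h and 1.45, 1.68 and 1.56 at 3 h, a fall of at least 5.26-fold to below background. Fpr1, the formyl peptide receptor of phagocytes, read 8.77, 9.11 and 8.85 at 0 h and 5.27, 3.54 and 4.75 at 3 h (-4.39 ± 0.43), with 2 of 3 arrays above background at 3 h. Drc1 and Tcstv3, above background on all arrays, fell by 4.62 and 4.43. Itih5, Tmem273 and Gfra2 were above background on 3 arrays at 0 h and on 2 of 3 at 3 h, and Cox6a2 and the interferon-induced gene Ifit3b on 3 arrays at 0 h and on 1 of 3 at 3 h, so their fitted falls are not exact.

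Interferon response genes fell together. All 28 on the list were measured, with a median of -1.65. Of these 1 rose and 23 fell (0 and 16 in the 12-array fit), 17 of them falling past 2-fold. Ifit3 read 10.09, 10.17 and 10.83 at 0 h and 6.29, 5.95 and 6.13 at 3 h (-4.24 ± 0.22, adjusted p = 3.7e-05); it shares sequence with Ifit3b. Oas2, a sensor of double-stranded RNA, read 10.23, 10.38 and 10.48 at 0 h and 7.69, 7.54 and 7.86 at 3 h (-2.66 ± 0.11, adjusted p = 2.55e-05). Xaf1, Isg20 and Bst2 fell by 2.45 ± 0.12, 1.92 ± 0.090 and 1.86 ± 0.092, and Mx1, Rtp4, Ifit1 and Rsad2 by 3.09 ± 0.19, 2.88 ± 0.16, 2.34 ± 0.21 and 1.96 ± 0.15. In these genes the 3 h arrays all lay below the 0 h arrays, as they did in 40.4% of all genes tested. The member that rose was Gbp3 (0.56), and Isg15 (0.03), Irf1 (0.02), Igtp (0.15) and Gbp2 (-0.15) did not pass. Irf1, Igtp and Gbp2 are known as targets of interferon-gamma. In CD83cKO cells Ifit3, Oas2 and Mx1 differed by -2.83 ± 0.56, -2.29 ± 0.42 and -2.46 ± 0.47, while Irf1, Igtp and Gbp2 differed by 1.51, 1.34 and 1.27, or 0.66, 0.38 and 0.02 without the 21-week arrays.

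Markers of macrophages and of NK and CD8 T cells fell over the same 3 h, and so did 8 of the 11 T cell markers. The dendritic cell, B cell, plasma cell, neutrophil and erythroid lists held falls at about the share of all genes (36.7%) or below it. In CD83cKO cells the median differences of these lists, in that order, were -1.25, -0.82, -0.70, -1.415 and -1.47. Of 12 monocyte and macrophage markers, 9 fell, 7 of them past 2-fold, and none rose; their mean level was 9.72 to 10.56 on the 0 h arrays and 7.92 to 8.41 on the 3 h arrays. C1qc, a complement subunit made by macrophages, read 10.03, 11.03 and 10.66 at 0 h and 7.07, 7.73 and 7.59 at 3 h (-3.11 ± 0.30, adjusted p = 0.000292), and Csf1r, the receptor for macrophage colony-stimulating factor, 12.80, 13.59 and 13.29 at 0 h and 10.09, 10.41 and 10.43 at 3 h (-2.92 ± 0.22, adjusted p = 0.000122). Hmox1 (0.29) and Spic (-0.78) did not pass. NK and CD8 T cell markers fell in 8 of 9 cases (0 and 5 in the 12-array fit), with mean levels of 8.372 to 8.545 at 0 h and 6.674 to 7.004 at 3 h; Klrb1c read 6.05, 6.31 and 6.62 at 0 h and 2.91, 2.03 and 2.79 at 3 h, a fall of at least 5.53-fold to below background, and Nkg7 fell by 2.24 ± 0.12. Of 8 dendritic cell markers 1 rose and 3 fell (1 and 1 in the 12-array fit). The rise was that of Zbtb46, at least 8.06-fold from below background. Of 8 B cell markers 2 fell. Of 4 measured neutrophil markers 1 fell, and of 4 plasma cell markers 1 rose (0 and 0 in the 12-array fit for both lists). Of 9 erythroid and platelet markers none passed the threshold. Erythroid and platelet means were 9.74, 10.58 and 8.43 at 0 h and 9.18, 10.13 and 7.77 at 3 h, in the order of the arrays' positions on their slides, and B cell means were 8.40, 9.58 and 7.99 at 0 h and 7.70, 8.84 and 7.69 at 3 h. In both lists the same position was highest and the same lowest on each slide, and each position read lower at 3 h. With position as a block the erythroid genes Klf1 and Ahsp passed as falls, with adjusted p = 0.0247 and 0.0103 (limma), as did the B cell genes Ms4a1 and Cd79b, with adjusted p = 0.00432 and 0.00589. Of the dendritic cell markers, H2-Ab1 then passed as a fall and Flt3 no longer did (limma adjusted p = 0.0259 and 0.104). The T cell marker Cd247 no longer passed either (0.0823). No label ties a position to a mouse. Marker levels of macrophages and the levels of interferon genes thus moved in the same direction, as did those of Fpr1 and P2ry13, which phagocytes express; the part of other cells in the falls was not tested.

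**Figure D3:**
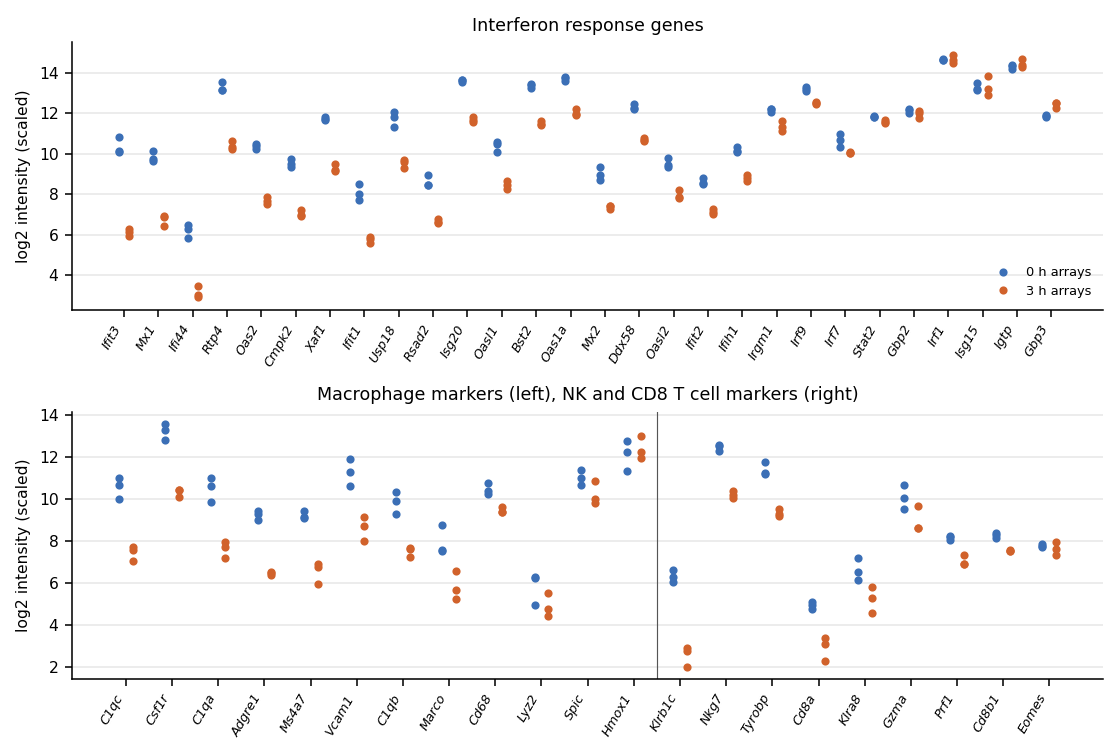
Scaled log2 intensity on each wild-type array of the 28 measured interferon response genes (top) and of 12 macrophage markers and 9 NK and CD8 T cell markers (bottom, split by the line); blue points are the 0 h arrays, orange points the 3 h arrays, 3 of each. Ifit3, Mx1 and Oas2 fell with no overlap, as did C1qc and Klrb1c, while Irf1, Isg15 and Hmox1 overlap.

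The response was set beside that of CD83cKO cells gene by gene. Of the wild-type calls with a value there, 93.8% had the same sign in CD83cKO cells (11351 genes), and of those past 2-fold 98.93% (1966 genes). The median difference of the rises past 2-fold was 2.08 in wild type and 1.52 in CD83cKO cells. That of the falls was -1.94 and -1.40, and the genes were chosen in wild type. The CD83cKO medians include the 21-week arrays. Without those arrays Crem and Nr4a2 differed by 6.10 and 6.44 in CD83cKO cells, beside 6.10 and 6.43 in wild type. Atf3 and Gls2 then differed by 6.27 and 5.65, beside 8.63 and 7.92 in wild type. Across 17839 genes, which are not independent replicates, Pearson's r between both differences was 0.864. The opposite sign appeared in 21 genes past 2-fold, Ccl1, Cyld, Socs1, Fn1 and Kit among them; without the 21-week arrays Ccl1, Socs1 and Kit differed by -0.27, -0.52 and -0.09, Ccl1 and Socs1 then having the wild-type sign. Fn1, which encodes fibronectin, rose by 2.57 ± 0.18 in wild type and differed by -1.75 ± 0.55 in CD83cKO cells, or -1.22 without the 21-week arrays. Whether the genotypes differed was not tested for these genes. In the 12-array fit 30 of the 152 called genes named by rule no longer passed. Among them were Cox6a2, Ltb, Xcl1, Cxcl10, Ccl5, Ccr8, Cblb, Il27ra, Lrrc32, Satb1, Srm, Rpl14, Slc3a2, Cyp51, Isg20, Pdia4 and Cd3g.

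**Figure D4:**
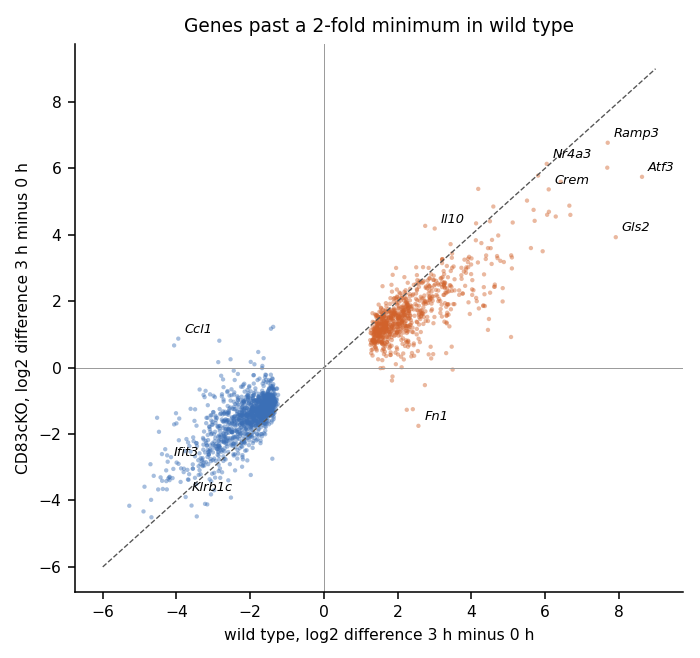
Log2 difference, 3 h minus 0 h, in wild type (x axis) and in CD83cKO cells (y axis) for the 1966 genes past the 2-fold test in wild type with a value in both; orange points rose and blue points fell in wild type, and the dashed line marks equal differences. Of these genes 98.93% have the same sign in both, while Ccl1 and Fn1 have opposite signs; levels below background enter at their measured value.

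Shares of rises and falls were counted by class of transcript, with no test between classes. Of 427 long noncoding RNA genes tested, 44.3% fell and 18.7% rose, and 14.1% fell past 2-fold. Among 12114 protein-coding genes those shares were 38.6%, 29.3% and 7.43%, and 31.1%, 22.2% and 3.67% among 5098 genes without a class. Antigen receptor V segments fell in 12 of 19 cases and rose in none. The median genomic length of the 50 protein-coding genes that rose most was 14.9 kb. It was 23.6 kb for the 50 that fell most and 21.7 kb for all protein-coding genes tested. Among all protein-coding genes past 2-fold the order was reversed, with 26.4 kb for the 658 rises and 19.8 kb for the 900 falls.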

How the data were processed

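RNA of sorted splenic Treg was amplified from 20 ng (labelled sample 1 at 0 h, genotype not stated) or 40 ng of total RNA, labelled with Cy3 and hybridised, per the labels' protocols. The authors deposited scanner files with a processed intensity per spot, made with Agilent Feature Extraction 10.7.3.1 per the file headers (version 11 per the submitters' processing notes, which also name Partek). They also deposited a table of log2 values, whose scale is log2 and whose columns all have a median of 3.89. Its normalization method is not given in the sources read here, and the table served only as an alternative.

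From the deposited intensity, control and outlier spots were dropped, spots of a probe were averaged on the log2 scale, and arrays were aligned at the 75th percentile of the probes detected well above background on all 6 of them; 11.084, the mean percentile, was added back. Spot counts were 62976 per array, for 55681 probes, of which 31462 were named through RefSeq tables by accession, symbol or synonym and 24219 kept the file's name. The brightest passing probe stood for a gene; of 3362 called genes with several tested probes, 542 had a probe of opposite sign. Differences were fitted in limma 3.58.1 (R 4.3.3) on the 6 wild-type arrays, with 4 residual degrees of freedom per gene, since the CD83cKO groups mix ages; ± is the standard error of the fit, n = 3 arrays per time. With 3 arrays against 3, an exact permutation test of a single gene cannot go below p = 0.1. The number of arrays limits the precision. "At least N-fold" compares the bright group's mean with the mean of the dim arrays. Each dim array enters at its measured level or at its lowest signal well above background, whichever is higher. That lowest signal is a lenient limit: on the first 0 h array it was 3.286, and Atf3 at 4.21 was not called above background there. The stated folds are therefore not strict minima. The fit was checked on simulated data.

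Genes were named by a rule: the 15 largest rises and falls with a symbol, a called difference and no overlap between times, up to 4 called members of each of 36 gene lists by test statistic, Cd83 and Foxp3. Other list members named were picked with their values in view, to account for a list. The comparison, the lists and the members were chosen with earlier results of these data known. The differences of the CD83cKO arrays came from a separate fit with age as a block, scaled in the same way. Promoters came from RefSeq on GRCm38.p6, 1 per gene, at the start furthest upstream. Probe positions are on mm9, per the file headers. One gene that the naming rule picked is not reported here.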

Additional observations from a re-analysis of the deposited data

Results flagged for a closer look

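Jund, a JUN family factor, was the list member whose arrays moved in opposite directions in wild-type and CD83cKO cells with no overlap in either. In wild type it read 14.94, 14.63 and 14.76 at 0 h and 14.45, 14.34 and 14.57 at 3 h, a difference of -0.326 ± 0.11 (limma, adjusted p = 0.0427). In CD83cKO cells it read 14.13, 14.17 and 14.18 at 0 h and 14.28, 14.43 and 15.24 at 3 h, a difference of 0.49 ± 0.23. The difference between the genotypes was not tested. Over all genes tested, 11 were higher in wild type and lower in CD83cKO cells at 3 h in this sense and 10 the reverse, beside 1701 that were higher in both and 2123 that were lower in both. Groups of 3 arrays are too small to look for outlying samples.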

How the results depend on the processing

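Of the alternatives tried for the 4821 rises and 6565 falls, those that moved the counts by over 1.5 times were all 12 arrays in the fit (2520 rises, 3141 falls) and the 2-fold minimum (808 and 1170). Leaving out 1 array at a time gave 4246 to 4805 rises and 5758 to 6137 falls. Other scalings, the deposited log2 table, other filters, other ways from probe to gene, array weights and 10 arrays in the fit stayed within 1.5 times. Of the 154 genes named by rule, none reversed its sign in any of the 19 alternatives run on genes, and 30 of 152 calls were lost with all 12 arrays. Without the 21-week arrays the share of wild-type calls with the same sign in CD83cKO cells was 92.9%, beside 93.8% (exact 95% binomial interval 93.4% to 94.3%). That interval takes genes as independent, which they are not, so it does not measure the spread between arrays. The labels number no replicates and tie no array to a mouse, so wild-type arrays could be paired across times only by their position on the slide. Arrays at the same position deviated from their group means with correlations of 0.085, 0.269 and 0.181 across genes, and arrays at other positions with -0.188 to -0.006. Deviations from a group mean cancel out within a time, so the values at other positions are not independent of those at the same position. With that position as a replicate block, 4624 genes rose and 6446 fell; of 621 list genes, 22 passed that had not and 16 no longer passed. Of those given above as not passing, Jun, Dusp2, Itgae and Spic passed, with adjusted p = 0.00825, 0.0373, 0.00996 and 0.00824 (limma). The erythroid genes Klf1 and Ahsp, at -1.62 and -1.16 with an adjusted p of 0.25 and 0.365, passed at 0.0247 and 0.0103. Genes at the low end of the intensity scale are limited by background, which held Foxp3 and Rel out of the comparison.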
